A study of Mus musculus with 12 samples.

Results

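Itgam, P2ry12, P2ry13, Cx3cr1, Csf1r, C1qa, C1qb, C1qc, Tmem119 and Cd68 are 10 genes by which microglia and their complement proteins are commonly recognised in mouse brain. They were picked by symbol. All 10 had a row in the deposited count files, out of 29879 gene rows, and all 10 passed the filter on low counts that left 13404 genes to test. The sequenced RNA came from SNAP25 BacTRAP mice, from cortex taken at postnatal day 21, and all 12 libraries share that line, tissue and age. In such a line a ribosomal protein fused to green fluorescent protein is made under the control of a bacterial artificial chromosome, here that of the neuronal gene Snap25, so that antibodies against the tag pull down the ribosomes of the tagged cells with their mRNA. SynapTRAP is that pull-down from the gradient band, SNF is the band called SN of a sucrose-percoll gradient before any pull-down, TRAP is the pull-down from the homogenate, and WCH is the whole cortex homogenate, with 3 libraries in each of the 4 groups. Snap25 is not known to be active in microglia. The labels tell neither whether animals were pooled nor whether the replicates are different animals. Each p-value therefore reflects the spread of these libraries alone, which may be technical.

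Microglia are the resident macrophages of the brain. Their survival depends on the receptor encoded by Csf1r, their fine processes sense nucleotides through purinergic receptors such as the product of P2ry12, and the fractalkine receptor encoded by Cx3cr1 binds a ligand made by neurons. C1q, built of A, B and C chains, starts the classical complement cascade, and in the developing mouse brain it is known to mark synapses that microglia engulf through the complement receptor whose alpha chain is encoded by Itgam.

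All 10 genes are protein-coding in GENCODE M21 on GRCm38, from which the symbols and positions were taken. No source used here names the genome build behind the counts. C1qb, C1qc and C1qa lie side by side on the minus strand of chromosome 4. C1qb (ENSMUSG00000036905) spans 136880129 to 136886187, C1qc (ENSMUSG00000036896) 136889804 to 136893065 and C1qa (ENSMUSG00000036887) 136895917 to 136898803, with gaps of 3616 and 2851 bases between them. P2ry13 (ENSMUSG00000036362, 59207892 to 59210882) and P2ry12 (ENSMUSG00000036353, 59216272 to 59262871) are neighbours on the minus strand of chromosome 3, with 5389 bases between them. Both lie within Med12l on the other strand, which shares 9 exon bases with P2ry12 and 0 with P2ry13. Itgam (ENSMUSG00000030786) is on the plus strand of chromosome 7 at 128062640 to 128118491, and Cx3cr1 (ENSMUSG00000052336) on the minus strand of chromosome 9 at 119901616 to 120069879. Tmem119 (ENSMUSG00000054675) is on the minus strand of chromosome 5 at 113793729 to 113800516 and Cd68 (ENSMUSG00000018774) on the minus strand of chromosome 11 at 69664213 to 69666153. Cx3cr1 shares 78 exon bases with Gm33858 and Itgam shares 3450 with Gm49368, which has no row in the files. Gm49368 lies on the same strand as Itgam, so strand could not separate the reads of that pair. Whether the counting used strand is not stated in the sources, so reads of genes that overlap on opposite strands cannot be told apart either. Med12l averaged 23.2, 21.9, 22.5 and 28.1 CPM (reads per 1000000 reads, scaled as given below) in SynapTRAP, SNF, TRAP and WCH, and it was called in none of the 6 contrasts tested with edgeR.

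The promoters of 4 of the genes are shown because these genes moved together in the gradient band, while P2ry12 and Itgam stood at opposite ends of several comparisons below. Each line holds the 250 bases before the transcription start in RefSeq (GRCm38.p6), 5′ to 3′ on the gene's strand. The capitals mark the letters GAGGAA or, read on the other strand, TTCCTC, a sequence that PU.1, a transcription factor of macrophages and microglia, can bind. The windows are chr4:136886201-136886450 (minus) for C1qb, chr4:136892915-136893164 (minus) for C1qc, chr7:128062390-128062639 (plus) for Itgam and chr3:59262986-59263235 (minus) for P2ry12.
C1qb: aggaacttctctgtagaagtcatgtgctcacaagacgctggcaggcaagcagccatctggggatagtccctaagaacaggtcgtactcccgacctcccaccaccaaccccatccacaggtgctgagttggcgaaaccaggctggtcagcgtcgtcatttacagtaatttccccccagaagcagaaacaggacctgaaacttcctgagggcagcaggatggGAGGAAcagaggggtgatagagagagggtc
C1qc: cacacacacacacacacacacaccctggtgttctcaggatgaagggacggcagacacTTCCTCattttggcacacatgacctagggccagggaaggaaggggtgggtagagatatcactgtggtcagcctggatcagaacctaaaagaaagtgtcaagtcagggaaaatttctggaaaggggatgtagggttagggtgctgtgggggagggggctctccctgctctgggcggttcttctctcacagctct
Itgam: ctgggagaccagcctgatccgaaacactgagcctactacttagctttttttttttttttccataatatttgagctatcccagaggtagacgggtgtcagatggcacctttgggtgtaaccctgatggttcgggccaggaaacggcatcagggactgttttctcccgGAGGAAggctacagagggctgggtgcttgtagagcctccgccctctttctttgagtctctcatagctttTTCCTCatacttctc
P2ry12: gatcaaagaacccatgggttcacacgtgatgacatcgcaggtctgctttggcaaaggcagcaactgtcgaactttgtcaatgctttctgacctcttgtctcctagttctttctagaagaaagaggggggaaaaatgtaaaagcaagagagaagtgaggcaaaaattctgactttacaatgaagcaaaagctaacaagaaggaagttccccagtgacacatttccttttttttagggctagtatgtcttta
The RefSeq table held a window for 7 of the 10 genes, and 5 of the 7 held the motif. Itgam held it at 2 places, C1qb, C1qc, P2ry13 and Cd68 at 1 each, and P2ry12 and Cx3cr1 at 0. Of all 32851 windows of the same length, 7639 (23.3%) held it. A match describes letters, not a bound site. Other sequences that PU.1 may bind were not searched, so a window without a match may still hold one.

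Gene counts per library were 4368881 to 14335089, and those outside the mitochondrial genome 1819853 to 7115176. Mitochondrial RNA took 20.4% to 63.3% of gene counts in SynapTRAP, 82.2% to 87.3% in SNF, 0.930% to 5.43% in TRAP and 33.6% to 50.9% in WCH. Levels are therefore given as CPM with trimmed mean of M-values (TMM) scaling, in which 1 read was worth 0.0676 to 0.288 CPM. The 10 genes together had 1111 to 4441 reads per library in SynapTRAP, 1092 to 2062 in SNF, 200 to 564 in TRAP and 937 to 1113 in WCH. In bulk RNA, fewer cells of a type and less RNA per cell cannot be told apart.

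The microglia genes were highest in the gradient band and lowest in the pull-down from the homogenate. Their summed level was 164 to 356 CPM in SynapTRAP, 266 to 548 in SNF, 18.1 to 48.3 in TRAP and 74.4 to 85.9 in WCH. Group means stood in the order SNF, SynapTRAP, WCH, TRAP from high to low for 9 of the 10 genes, and C1qa had SynapTRAP above SNF. The share of all tested genes in this order was not computed. The summed astrocyte genes had the same order (means 16632, 12523, 2678 and 1121 CPM), and the oligodendrocyte and neuron sums did not. SynapTRAP and SNF overlapped for 8 of the 10, and TRAP and WCH for 5, so these neighbours in the order are not separated for those genes. The order held for 0 of the 10 when total gene counts, which hold the mitochondrial RNA, set the scale. Without any scaling factor, the 10 genes had 673, 589 and 310 CPM of the reads outside the mitochondrial genome in SynapTRAP, 942, 993 and 517 in SNF, 82.7, 46.2 and 93.5 in TRAP and 190, 185 and 210 in WCH. On that measure every SynapTRAP and SNF library lay above every WCH library and every TRAP library below. In CPM of all gene counts they had 440, 469 and 114 in SynapTRAP, 120, 177 and 80.4 in SNF, 78.4, 45.8 and 88.4 in TRAP and 126, 116 and 103 in WCH, and SNF then overlapped WCH.

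**Figure D1:**
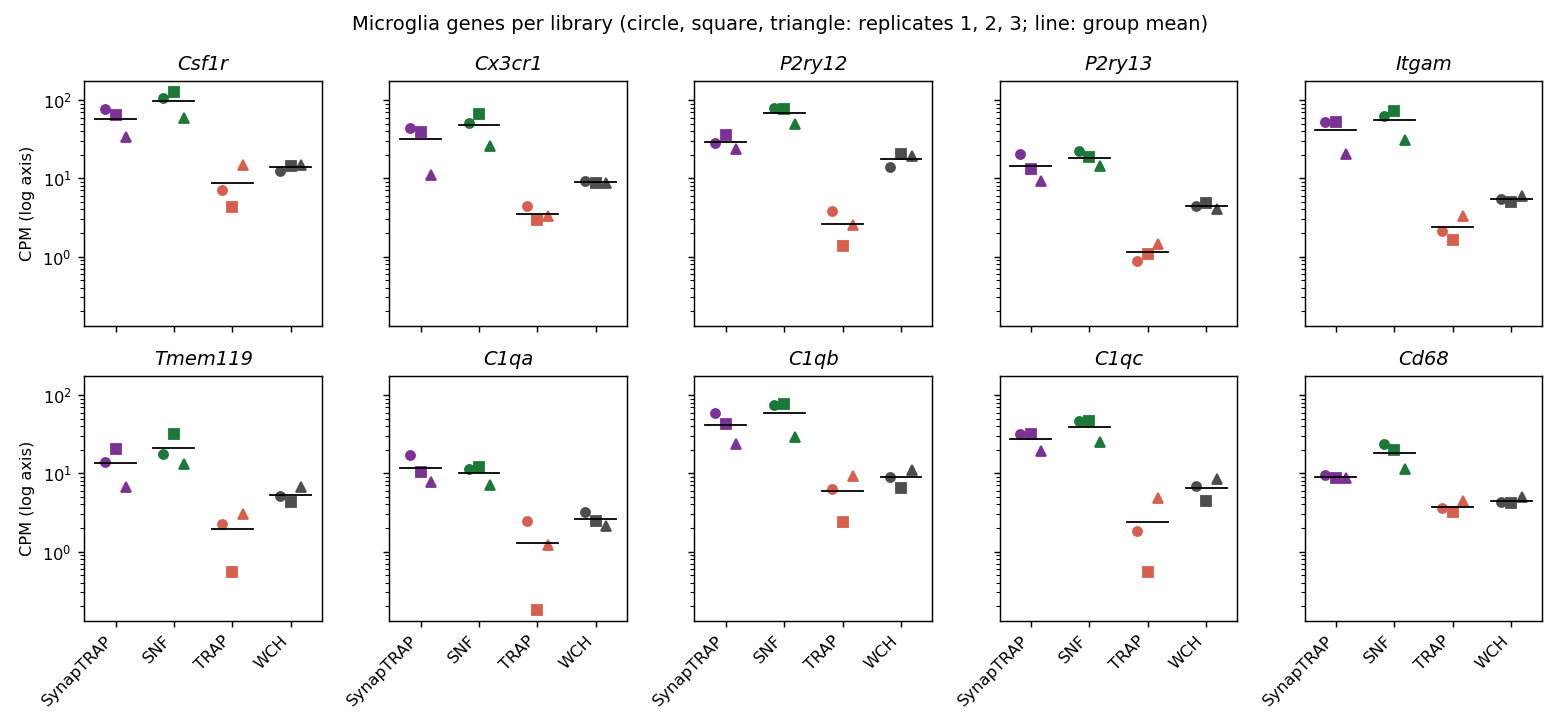
Level of each gene in CPM (log axis) in the 3 libraries of SynapTRAP, SNF, TRAP and WCH, with a line at the group mean. For the 10 genes every SNF and SynapTRAP library lies above every WCH library at this scaling. Scaled by total gene counts, 5 of the 10 had a negative log2 fold change in SNF against WCH, with 0 called lower. Libraries numbered 3 are the lowest of SNF in 10 of 10 panels and of SynapTRAP in 9.

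The libraries numbered 3 of both band groups stood below the others. SNF replicate 3 was the lowest SNF library for 10 of 10 genes and SynapTRAP replicate 3 the lowest SynapTRAP library for 9. SynapTRAP replicate 3 also held the most mitochondrial RNA of its group (63.3%), while SNF replicate 3 (84.5%) lay between the other SNF libraries (82.2% and 87.3%). The part of mitochondrial RNA in the lower levels was not tested. TRAP replicate 2 was the lowest TRAP library for 9 of 10 genes, with 200 reads over all 10. How often these libraries were the lowest of their group over all tested genes was not counted. Without both band libraries numbered 3, 10 of the 10 genes were called higher in SNF against WCH, where 22.2% of all tested genes were, 10 in SynapTRAP against TRAP, where 21.4% were, and 10 in SynapTRAP against WCH, where 22% were. Of the 10, 2 were lower in SynapTRAP against SNF, where 0.623% of all tested genes were.

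Among the receptors, Csf1r (ENSMUSG00000024621, plus strand of chromosome 18, 61100598 to 61132149) encodes the receptor for the growth factors Csf1 and Il34. It shares exon bases with Hmgxb3 on the other strand, which was called in none of the contrasts. Its level was 77.2, 63.7 and 33.5 CPM in SynapTRAP, 105, 127 and 58.9 in SNF, 7.07, 4.35 and 15.0 in TRAP and 12.6, 14.5 and 14.9 in WCH. Every band library was above every WCH library, whereas TRAP replicate 3 lay just above the WCH libraries and the other TRAP libraries below them. Csf1r rose in SNF against WCH (log2 fold change 2.79, SE 0.41, adjusted p = 8.29e-05) and in SynapTRAP against WCH (2.06, SE 0.40, adjusted p = 0.000879). The TRAP value of −0.67 against WCH (SE 0.40, adjusted p = 0.249) did not pass, and it was −1.24 (adjusted p = 0.0278) without TRAP replicate 3. Cx3cr1, the fractalkine receptor gene, had 44.5, 39.6 and 10.9 CPM in SynapTRAP, 50.9, 67.0 and 26.0 in SNF, 4.42, 2.90 and 3.34 in TRAP and 9.34, 8.85 and 8.80 in WCH. Its 3 WCH libraries were nearly level, and every TRAP library lay below them, while SynapTRAP replicate 3 came close to them. The log2 fold changes were 2.41 (SE 0.42, adjusted p = 0.000365) in SNF against WCH and −1.33 (SE 0.44, adjusted p = 0.0394) in TRAP against WCH. The TRAP call was lost without any 1 of the 6 TRAP and WCH libraries (log2 fold change −1.50 to −1.17, adjusted p = 0.0707 to 0.118).

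P2ry12, whose product is the ADP receptor that steers microglial processes, differed most in the pull-down from the homogenate. It had 28.0, 35.5 and 23.4 CPM in SynapTRAP, 78.6, 76.6 and 49.6 in SNF, 3.81, 1.36 and 2.57 in TRAP and 14.0, 20.4 and 19.3 in WCH. The 4 groups did not overlap. P2ry12 fell in TRAP against WCH, with a log2 fold change of −2.77 (SE 0.31, adjusted p = 1.55e-05). It rose in SNF against WCH (1.93, SE 0.28, adjusted p = 2.57e-05, but −0.42 with total gene counts as the scaling), and in SynapTRAP against WCH the value was 0.70 (SE 0.28, adjusted p = 0.0510), just outside the threshold. That value passed with no filter (adjusted p = 0.0318), with the replicate block (adjusted p = 0.0460), with only the groups of the contrast (adjusted p = 0.0341), without SynapTRAP replicate 3 (adjusted p = 0.0216) and without both band libraries numbered 3 (adjusted p = 0.0168). Its neighbour P2ry13, which encodes a related nucleotide receptor, had 20.8, 13.1 and 9.14 CPM in SynapTRAP, 22.4, 18.6 and 14.4 in SNF, 0.884, 1.09 and 1.46 in TRAP and 4.40, 4.80 and 4.03 in WCH. These values rest on 12 to 17 reads per TRAP library. P2ry13 fell in TRAP (−1.95, SE 0.36, adjusted p = 0.000856) and rose in SNF (2.06, SE 0.32, adjusted p = 4.33e-05, but −0.32 with total gene counts) and SynapTRAP (1.70, SE 0.31, adjusted p = 0.000242) against WCH. Both P2ry12 and P2ry13 kept their TRAP call with each single library left out and with total gene counts as the scaling.

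Itgam encodes the alpha chain of complement receptor CR3, which also marks macrophages in general. It had 53.2, 52.2 and 20.3 CPM in SynapTRAP, 62.7, 72.6 and 31.4 in SNF, 2.11, 1.63 and 3.34 in TRAP and 5.40, 4.93 and 5.87 in WCH. Every band library exceeded every WCH library, and every TRAP library was below them. Itgam had the largest log2 fold change of the 10 genes in SNF against WCH (3.36, SE 0.37, adjusted p = 3.41e-06), in SynapTRAP against WCH (2.96, SE 0.36, adjusted p = 7.93e-06) and in SynapTRAP against TRAP (4.15, SE 0.39, adjusted p = 3.53e-07). It was the gene of the 10 that stayed called in SNF against WCH with total gene counts as the scaling (1.01, adjusted p = 0.0292). Its TRAP value of −1.19 (SE 0.39, adjusted p = 0.0329) kept the call only with every WCH library and TRAP replicates 1 and 2 present (−1.25 to −0.96 when 1 of them was left out). Tmem119 encodes a membrane protein used to tell microglia from other macrophages. Its level was 13.8, 20.3 and 6.78 CPM in SynapTRAP, 17.6, 32.2 and 13.1 in SNF, 2.24, 0.544 and 3.0 in TRAP and 5.17, 4.26 and 6.60 in WCH. TRAP replicate 2 was far below the other TRAP libraries, with 6 reads. Tmem119 rose in SNF (1.97, SE 0.46, adjusted p = 0.00272, but −0.33 with total gene counts) and SynapTRAP (1.37, SE 0.44, adjusted p = 0.0212) and fell in TRAP (−1.44, SE 0.49, adjusted p = 0.0407) against WCH. The TRAP call needed every WCH library and TRAP replicates 1 and 2 (−1.59 to −0.99 when 1 of them was left out). The SynapTRAP call needed replicates 1 and 2 of both groups (0.97 to 1.38).

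The 3 genes of the C1q chains differed in level, and all rose in both band groups. C1qb was the highest of the 10 genes per kilobase of annotated exon in every group, with 38.7 ± 16.6 CPM per kilobase in SynapTRAP, 55.0 ± 24.6 in SNF, 5.47 ± 3.18 in TRAP and 8.14 ± 2.01 in WCH (SD, n = 3 each). On the same scale C1qa and C1qc were 11.3 ± 4.68 and 14.4 ± 3.73 in SynapTRAP, 9.78 ± 2.64 and 20.4 ± 6.55 in SNF, 1.23 ± 1.09 and 1.24 ± 1.13 in TRAP and 2.49 ± 0.561 and 3.40 ± 1.06 in WCH. In CPM not divided by length, C1qb had 59.9, 42.7 and 23.7 in SynapTRAP, 74.5, 76.1 and 28.9 in SNF, 6.25, 2.36 and 9.25 in TRAP and 9.11, 6.56 and 10.9 in WCH. TRAP and WCH overlapped, and every band library was above both. C1qc had 32.1, 31.8 and 19.5 CPM in SynapTRAP, 46.6, 46.8 and 24.8 in SNF, 1.84, 0.544 and 4.80 in TRAP and 6.87, 4.39 and 8.43 in WCH, and C1qa had 17.2, 10.5 and 7.67 in SynapTRAP, 11.2, 12.2 and 7.05 in SNF, 2.45, 0.181 and 1.20 in TRAP and 3.24, 2.43 and 2.11 in WCH. C1qa had 2 reads and C1qc 6 in TRAP replicate 2. All 3 rose in SNF against WCH, by log2 fold changes of 2.76 for C1qb (SE 0.49, adjusted p = 0.000757), 2.59 for C1qc (SE 0.48, adjusted p = 0.00084) and 1.96 for C1qa (SE 0.48, adjusted p = 0.00329, but −0.42 with total gene counts), and all 3 rose in SynapTRAP against WCH (2.26, 2.09 and 2.19 in the same order). In edgeR's robust test none of the 3 passed in TRAP against WCH, where C1qc had −1.45 (adjusted p = 0.0567), C1qa −0.97 (adjusted p = 0.175) and C1qb −0.56 (adjusted p = 0.443). C1qc was called lower with DESeq2 (−1.42, adjusted p = 0.0135), with edgeR without robust estimation (adjusted p = 0.0304) and with no filter on low counts (adjusted p = 8.37e-05). Without TRAP replicate 3, C1qc was −2.35 (adjusted p = 0.00279), and without TRAP replicate 1, C1qa was −1.85 (adjusted p = 0.0235).

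Cd68, a lysosomal membrane glycoprotein gene of phagocytes, varied least between groups. It had 9.62, 8.80 and 8.85 CPM in SynapTRAP, 23.9, 19.7 and 11.4 in SNF, 3.60, 3.17 and 4.37 in TRAP and 4.25, 4.12 and 4.95 in WCH. TRAP overlapped WCH, and every SNF library was above every SynapTRAP library. Cd68 rose in SNF (2.04, SE 0.30, adjusted p = 2.50e-05, but −0.32 with total gene counts) and SynapTRAP (1.04, SE 0.29, adjusted p = 0.00796) against WCH. In TRAP against WCH its value was −0.25 (SE 0.30, adjusted p = 0.582), which became 0.31 (adjusted p = 0.633) with total gene counts as the scaling.

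The first comparison, SNF against WCH, asks what the gradient band holds beside the tissue it came from. All 10 genes were called higher in SNF at an adjusted p under 0.05 (log2 fold changes 1.93 to 3.36), where 20.6% of all tested genes were, but with total gene counts as the scaling 1 of the 10 was called, where 0.0821% of all tested genes were, and 5 turned negative. That scaling moved the median of all tested genes from −0.25 to −2.60, so values relative to that median are less tied to it. The median of the 10 genes was 2.23, which is 2.48 above the median of all tested genes, and this distance was 2.30 to 2.77 over all alternatives. Every SNF library was above every WCH library for 10 of 10 genes, as it was for 25.6% of all tested genes. The authors' deposited table of genes selected by column for SNF, whose header names no group of comparison, lists 3508 genes, all 10 microglia genes among them. How many genes the authors tested is not stated there, so this count has no exact share beside it. The count files hold 29879 gene rows. In that authors' deposited table Itgam ranks 1 with a log2 fold change of 3.77 and a false discovery rate of 9.43e-41, Cx3cr1 ranks 3 with 2.83, and C1qa, the lowest ranked of the 10, ranks 1684 with 2.29. In the authors' deposited tables of 109 local and 275 somatic translation candidates, 0 of the 10 genes are listed. These lists are short beside 29879 gene rows, so 0 of 10 is not a result about the 10 genes.

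TRAP was compared with WCH to ask whether the pull-down of tagged ribosomes holds less of the microglia mRNAs than the tissue. In TRAP, P2ry12, P2ry13, Itgam, Cx3cr1 and Tmem119 were lower, 5 of the 10, where 10.9% of all tested genes were, and 0 were higher. With total gene counts as the scaling 2 of the 10, P2ry12 and P2ry13, were lower and Cd68 turned positive. With single libraries left out 2 to 6 were lower, 2 without TRAP replicate 2 or any 1 WCH library and 3 without TRAP replicate 1. The median of the 10 was −1.26, against −0.01 over all tested genes, and −1.38 to −0.96 relative to all tested genes over the alternatives. For 5 of the 10 genes every TRAP library was below every WCH library, as for 22.5% of all tested genes. The level of the 10 genes left in TRAP was 18.1 to 48.3 CPM in sum, against 74.4 to 85.9 CPM in WCH.

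SynapTRAP was compared with SNF to ask the same of the band. P2ry12 was lower in SynapTRAP (−1.23, SE 0.28, adjusted p = 0.0173), 1 of the 10 genes, where 1.79% of all tested genes were lower. The other 9 were not called by edgeR, at 0.23 for C1qa and −1.0 to −0.35 for the rest, and Cd68 had −1.0 (SE 0.29, adjusted p = 0.0507). With the replicate number as a block, since same-numbered libraries of these groups deviated together, Cd68 passed as well (−1.0, adjusted p = 0.0443) and 2 of the 10 were lower. Cd68 also passed with DESeq2 (−1.12, adjusted p = 0.00926), with RLE factors (−1.12, adjusted p = 0.0340) and without both band libraries numbered 3 (−1.37, adjusted p = 0.0444). The P2ry12 call was lost when leaving out SNF replicate 1 (−1.11, adjusted p = 0.0802), SNF replicate 2 (−1.13, adjusted p = 0.0899) or SynapTRAP replicate 1 (−1.30, adjusted p = 0.0691). With total gene counts as the scaling all 10 genes were called higher in SynapTRAP, P2ry12 at 0.81, but so were 90.8% of all tested genes, and the median of all tested genes moved from 0.03 to 1.98. Relative to that median, the median of the 10 was −0.57, and −0.91 to −0.24 over the alternatives. Every SynapTRAP library was below every SNF library for P2ry12 and for Cd68, as for 1341 of the 13404 tested genes, and the groups overlapped for the other 8.

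SynapTRAP was also set against TRAP and WCH. Against TRAP, all 10 genes were higher (1.29 for Cd68 to 4.15 for Itgam), where 21.6% of all tested genes were, and with total gene counts as the scaling 9 were, all but Cd68. Against WCH, 9 of the 10 were higher, where 20.7% of all tested genes were, all but P2ry12, and 7 were with total gene counts as the scaling. The median of the 10 was 3.18 above that of all tested genes against TRAP and 1.97 above it against WCH. Every SynapTRAP library was above every TRAP library and above every WCH library for 10 of 10 genes, as for 21.4% and 24.6% of all tested genes. These comparisons share libraries with those above and are not independent of them.

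The test of the difference between both pull-down effects, that in the band (SynapTRAP against SNF) less that in the homogenate (TRAP against WCH), called 0 of the 10 genes in edgeR, where 0.507% of all tested genes were called higher and 0.358% lower. At an unadjusted p under 0.05 there were 2, P2ry13 at 1.60 (SE 0.47, adjusted p = 0.0915) and P2ry12 at 1.54 (SE 0.41, adjusted p = 0.0703). P2ry12 passed with the replicate block (1.55, adjusted p = 0.0389), with DESeq2 (1.40, adjusted p = 0.0380), with no filter (1.56, adjusted p = 0.00644), without TRAP replicate 1 (1.82, adjusted p = 0.0308) and without SynapTRAP replicate 3 (1.66, adjusted p = 0.0454), so its call in this test depends on the setting. With total gene counts as the scaling 9 of the 10 were called higher, but so were 47.2% of all tested genes, whose median was then 1.46.

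**Figure D2:**
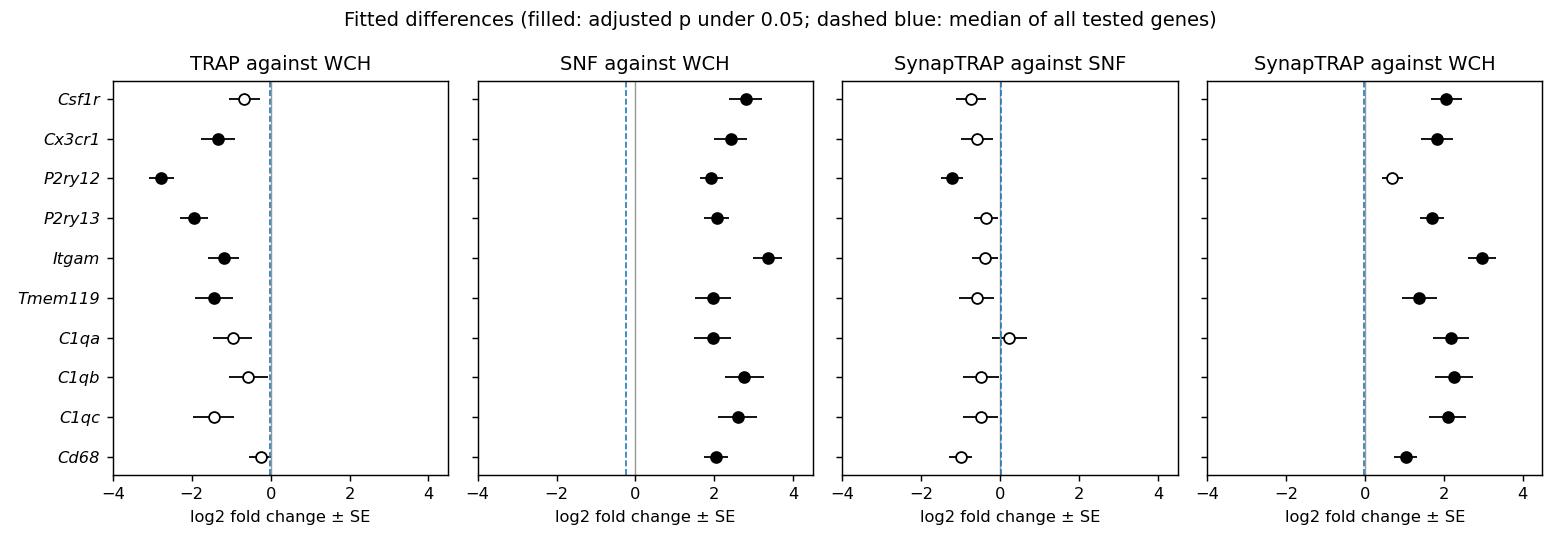
Log2 fold change ± SE of each of the 10 genes in 4 contrasts from the edgeR fit, filled where the adjusted p is under 0.05, with the median of all tested genes dashed. All 10 genes are filled and positive in SNF against WCH, P2ry12 lies lowest in TRAP against WCH (−2.77) and in SynapTRAP against SNF (−1.23), and with total gene counts as the scaling 5 genes of the SNF panel and 9 of the SynapTRAP against SNF panel change sign.

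Ratios of reads between genes of 1 library do not depend on the scaling, and they differed between the preparations. P2ry12 had 0.526, 0.680 and 1.15 reads per Itgam read in SynapTRAP, 1.25, 1.05 and 1.58 in SNF, 1.81, 0.833 and 0.769 in TRAP and 2.60, 4.14 and 3.30 in WCH. Every WCH library lay above every library of the other 3 groups. The log2 ratio of Cd68 to Itgam was −2.47, −2.57 and −1.20 in SynapTRAP, −1.39, −1.88 and −1.46 in SNF, 0.77, 0.96 and 0.39 in TRAP and −0.35, −0.26 and −0.25 in WCH. Here TRAP stood above WCH in every library and both band groups below it. The 3 C1q genes together made up 30.6%, 26.7% and 31.1% of the reads of the 10 genes in SynapTRAP, 26.8%, 24.6% and 22.9% in SNF, 30.4%, 17.0% and 31.6% in TRAP and 25.8%, 17.8% and 25.0% in WCH, and SynapTRAP stood above WCH in every library while the other groups overlapped. C1qb had 3.49, 4.05 and 3.10 reads per C1qa read in SynapTRAP, 6.64, 6.22 and 4.10 in SNF, 2.56, 13 and 7.71 in TRAP and 2.81, 2.69 and 5.17 in WCH. Every SNF library was above every SynapTRAP library on that ratio, and the TRAP value of 13 rests on 26 and 2 reads. No p is given for these ratios, since the 10 genes were chosen with results of these libraries known.

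**Figure D3:**
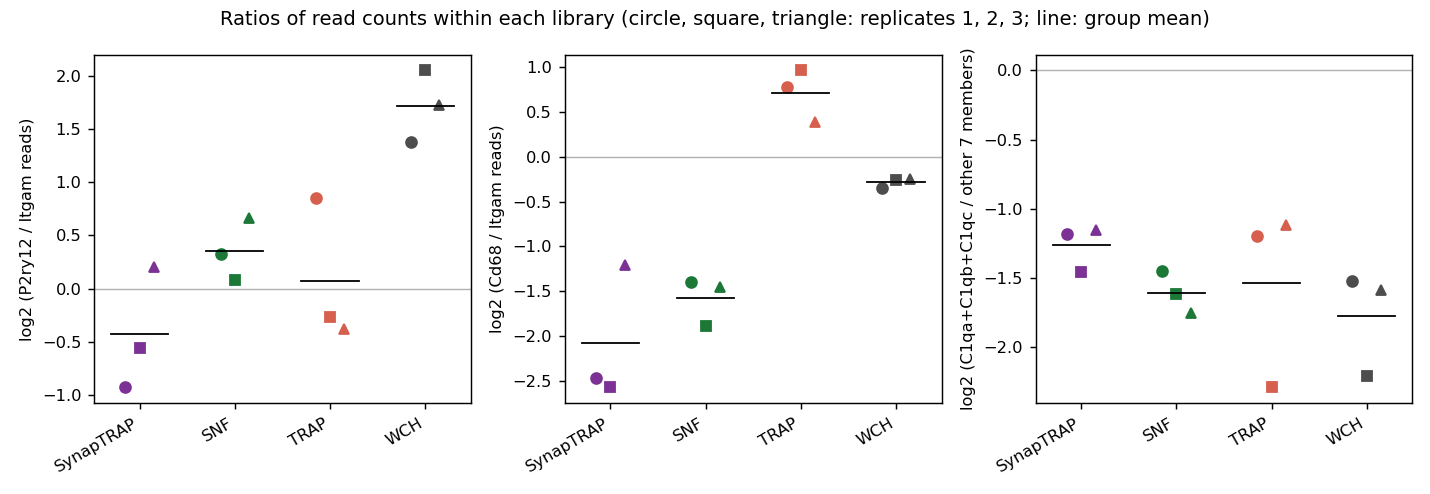
Log2 ratios of read counts within each library, for P2ry12 over Itgam, Cd68 over Itgam, and the 3 C1q genes over the other 7, in SynapTRAP, SNF, TRAP and WCH, with a line at the group mean. The 3 WCH libraries have the highest P2ry12 to Itgam ratios, and Cd68 over Itgam is above 0 in TRAP (0.39 to 0.96) and below 0 in the other 3 groups.

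The ligands of these receptors did not all follow them. Cx3cl1, the neuronal ligand of the Cx3cr1 receptor, averaged 758 ± 322 CPM in SynapTRAP, 740 ± 174 in SNF, 316 ± 23.5 in TRAP and 177 ± 6.73 in WCH (SD, n = 3 each). It rose in TRAP against WCH (0.84, SE 0.28, adjusted p = 0.0361), where Cx3cr1 fell. Il34, a ligand of the Csf1r receptor made mainly by neurons, averaged 26.5 ± 7.62 CPM in SynapTRAP, 34.5 ± 11.6 in SNF, 28.0 ± 7.40 in TRAP and 16.2 ± 1.89 in WCH and also rose in TRAP (0.80, SE 0.27, adjusted p = 0.0389). Csf1, the other ligand of that receptor, averaged 7.10 ± 0.923 CPM in SynapTRAP, 13.1 ± 3.58 in SNF, 2.30 ± 1.06 in TRAP and 6.13 ± 1.06 in WCH and fell in TRAP (−1.40, SE 0.35, adjusted p = 0.00707). Itgb2, the beta chain that pairs with the Itgam product, had 19 to 51 reads per library in SynapTRAP, 10 to 18 in SNF, 1 to 11 in TRAP and 5 to 10 in WCH, and its TRAP value of −0.68 (SE 0.70, adjusted p = 0.518) did not pass. The Csf1 call in SNF needed WCH replicate 1 and SNF replicates 1 and 2 (0.97 to 1.07 when 1 was left out), and the Il34 call SNF replicate 2 (0.79). In SNF against WCH, Cx3cl1 (2.06), Il34 (1.10), Csf1 (1.09) and Itgb2 (2.84) were all called higher, and with total gene counts as the scaling Cx3cl1 (−0.27), Il34 (−1.22) and Csf1 (−1.24) turned negative. The Il34 call in TRAP needed every WCH library and TRAP replicates 1 and 2 (adjusted p = 0.0652 to 0.140 when 1 of them was left out). The Cx3cl1 call needed every WCH library and TRAP replicates 2 and 3 (adjusted p = 0.0668 to 0.122).

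**Figure D4:**
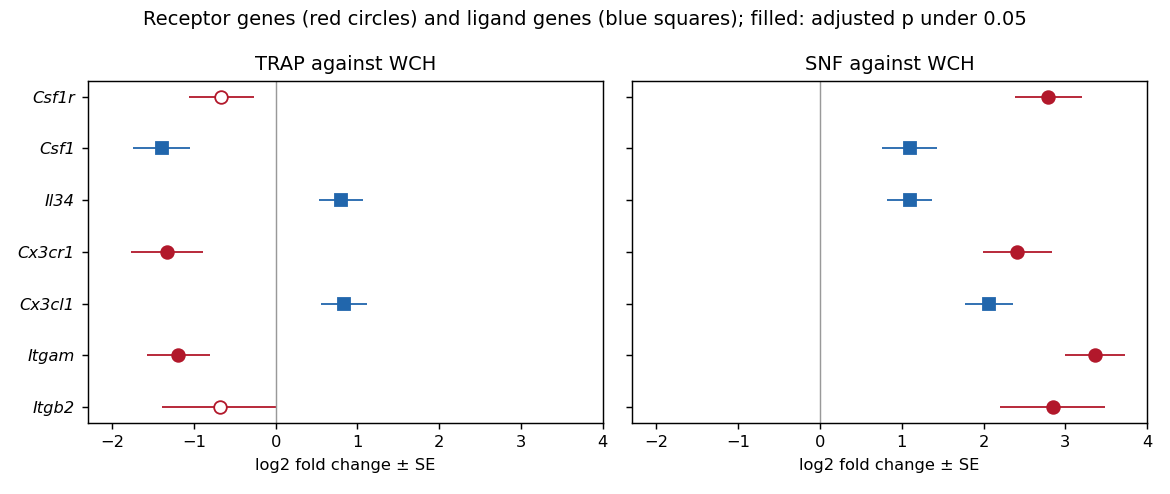
Log2 fold change ± SE of receptor genes (circles) and of genes for their ligands (squares) in TRAP against WCH and SNF against WCH, filled where the adjusted p is under 0.05. In TRAP the neuronal ligands Cx3cl1 (0.84) and Il34 (0.80) are positive, while Cx3cr1 (−1.33), the receptor of Cx3cl1, is negative. Csf1r, the receptor of Il34, is negative but not called, and its other ligand Csf1 is negative and called. Itgam (−1.19), which has no ligand shown here, is also negative. In SNF all 7 are positive at this scaling (Cx3cl1, Il34 and Csf1 are negative with total gene counts).

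Of 16 ligands and partners, 13 were tested. TRAP against WCH had 3 higher and 5 lower, where 11.1% of all tested genes were higher and 10.9% lower. Tyrobp, the adaptor of microglial activating receptors, fell (−1.43, SE 0.49, adjusted p = 0.0446), as did Tgfbr1 (−1.96, SE 0.29, adjusted p = 0.000162), a receptor of the growth factor that maintains microglial identity. The Tyrobp call needed every WCH library and TRAP replicates 1 and 2 (−1.53 to −1.07 when 1 of them was left out). Trem2, a lipid-sensing receptor that signals through Tyrobp, had −0.26 (SE 0.47, adjusted p = 0.734). SNF against WCH had 13 of 13 higher (0 with total gene counts as the scaling), where 20.6% of all tested genes were. In SynapTRAP against SNF 2 were lower, where 1.79% of all tested genes were. They are Tgfbr1 (−0.98, adjusted p = 0.0418) and Cd47 (−1.15, adjusted p = 0.0153), a broadly expressed inhibitor of engulfment. With total gene counts 13 were higher there, as were 90.8% of all tested genes. Leaving out single libraries gave 0 to 2 higher and 2 to 4 lower in TRAP against WCH, and 0 to 2 lower in SynapTRAP against SNF.

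Of 36 complement partners, 35 had a row and 24 were tested. SNF against WCH had 18 higher and 1 lower (0 higher and 8 lower with total gene counts as the scaling), where 20.6% of all tested genes were higher and 16.5% lower. Those higher include C4b (2.74, adjusted p = 0.000369), which encodes the C4 protein cleaved after C1q binds. TRAP against WCH had 1 higher and 3 lower of the 24, where 11.1% of all tested genes were higher and 10.9% lower, so the count lower is near the background. Megf10, an engulfment receptor of astrocytes, was among those that fell (−1.75, adjusted p = 0.000885). In SynapTRAP against SNF 0 of 24 were called by edgeR (22 higher with total gene counts as the scaling). The serine proteases C1ra and C1s1 that C1q carries, C2 and C3, the central component of the cascade, were under the filter. C3 had 4 to 8 reads per library in SynapTRAP, 0 in each SNF library, 1 to 7 in TRAP and 0 to 8 in WCH. C4b itself had 30 to 69 reads per library in SynapTRAP, 12 to 23 in SNF, 2 to 9 in TRAP and 8 to 10 in WCH. Leaving out single libraries gave 0 to 2 higher and 1 to 2 lower in TRAP against WCH.

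Of 20 phagosome and lysosome genes beside Cd68, 19 were tested. In SNF against WCH 18 were higher (0 with total gene counts as the scaling), where 20.6% of all tested genes were. Among them was Ctss (2.86, adjusted p = 3.80e-05), a protease gene abundant in microglia. TRAP against WCH had 3 higher and 5 lower, where 11.1% of all tested genes were higher and 10.9% lower. Psap (0.95, SE 0.27, adjusted p = 0.0143) and Ctsd (0.86, SE 0.27, adjusted p = 0.0247), lysosomal genes that most cells express, were among the 3 that rose there. The 19 values ran from −2.01 to 0.95 with a median of 0.28, so the largest change was a fall. The 5 genes called lower are not reported here by name. Ctss had −1.07 (adjusted p = 0.0644) in edgeR and was called lower by DESeq2 (−1.06, adjusted p = 0.0388), with the replicate block (−1.16, adjusted p = 0.0193), with no filter (−1.07, adjusted p = 0.00192), with only the groups of the contrast (−1.03, adjusted p = 0.0497) and without TRAP replicate 1 (−1.56, adjusted p = 0.0158). The Psap call needed WCH replicates 1 and 2 and TRAP replicate 3 (0.61 to 0.95 when 1 was left out), and the Ctsd call every WCH library and TRAP replicate 3 (0.72 to 0.93). Leaving out single libraries gave 0 to 3 higher and 3 to 6 lower, and total gene counts 6 higher and 0 lower. In SynapTRAP against SNF 0 of 19 were called by edgeR and 1 was lower by DESeq2, while 19 were higher with total gene counts as the scaling.

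Other microglia genes behaved much like the 10. Of 37, 34 were tested. In TRAP against WCH 12 were lower and 0 higher, with a median of −1.07, against −1.26 for the 10 genes and −0.01 for all tested genes. In SNF against WCH 30 were higher (median 2.06), and with total gene counts as the scaling 0 were higher and 4 lower. In SynapTRAP against SNF 2 were lower (median −0.47, 28 higher with total gene counts). In SynapTRAP against TRAP 32 were higher, and against WCH 25. Over all tested genes 10.9% were lower in TRAP against WCH, 20.6% higher in SNF against WCH and 1.79% lower in SynapTRAP against SNF. Those higher in SynapTRAP were 21.6% against TRAP and 20.7% against WCH. Gpr34, a lysophospholipid receptor gene, had 43 to 101 reads per library in SynapTRAP, 51 to 58 in SNF, 2 to 7 in TRAP and 32 to 78 in WCH, and its fall in TRAP was −3.67 (SE 0.47, adjusted p = 4.37e-05). Cd53, a tetraspanin gene of leukocytes (−2.47, SE 0.46, adjusted p = 0.000969), and Tlr7, a receptor for RNA in endosomes (−2.45, SE 0.67, adjusted p = 0.0131), came next. The Tlr7 call needed WCH replicates 2 and 3 and TRAP replicates 1 and 3 (−2.45 to −1.95 when 1 was left out). The count of 12 lower in TRAP was 6 to 12 with single libraries left out and 6 with total gene counts, and that of 2 lower in SynapTRAP against SNF was 0 to 3. Spi1, which encodes PU.1, had 0.13 in TRAP against WCH (SE 0.51, adjusted p = 0.879) and rose in SNF (2.57, SE 0.49, adjusted p = 0.000346).

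The genes whose centred log2 CPM over the 12 libraries came closest to the mean of the 10 were Vsir, Gpr37l1, Fcer1g, Havcr2, Mpeg1, Scd2, Siglech, Itih5, Prelp and Fcgr3, with a root mean square difference of 0.242 for Vsir to 0.333 for Fcgr3. Vsir, Fcer1g, Siglech and Fcgr3 are on the list of other microglia genes. Gpr37l1 is known from astrocytes. Among the 10 genes themselves the difference to their own mean was smallest for Csf1r (0.264) and C1qb (0.308) and largest for P2ry12 (0.621) and Cd68 (0.742).

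Most astrocyte and oligodendrocyte genes moved with the microglia genes at TMM scaling, while endothelial and mural genes were not called in TRAP. All 12 astrocyte genes were higher in SNF against WCH and 7 were lower in TRAP. For oligodendrocytes 8 of 12 were higher in SNF and 8 lower in TRAP (range −2.78 to 2.37 there). Over all tested genes 20.6% were higher in SNF and 10.9% lower in TRAP. Among 8 endothelial genes 1 was higher in SNF and 0 were called in TRAP (median 1.76, summed 4.21 to 37.1 CPM). The 37.1 CPM were those of TRAP replicate 2. TRAP replicates 1 and 3 (4.21 and 4.45 CPM) lay below every WCH library (4.86 to 8.52 CPM). Among 5 tested mural genes 2 were higher in SNF and 0 were called in TRAP (median 0.51). The mural sum was also highest in TRAP replicate 2, at 49.4 CPM against 16.8 and 13.7 CPM in TRAP replicates 1 and 3. The summed astrocyte level was 9601 to 16512 CPM in SynapTRAP, 14482 to 19675 in SNF, 689 to 1485 in TRAP and 2375 to 2983 in WCH. Of 14 neuron genes, 3 were higher and 3 lower in SNF and 6 higher in TRAP against WCH. Over all tested genes 20.6% were higher and 16.5% lower in SNF and 11.1% higher in TRAP, so the neuron counts in SNF are near the background. In CPM of all gene counts the astrocyte sum was 4679 to 4770 in SNF and 3582 to 4532 in WCH, and the oligodendrocyte sum 1942 to 3281 in SNF and 3446 to 5636 in WCH, so that the oligodendrocyte direction turned. The part of these cell types in the microglia result was not tested. Macrophages of the brain's borders share several of the 10 genes. Of 10 of their markers, 5 were tested, and Mrc1 (2.60, adjusted p = 0.000465) and Stab1 (3.23, adjusted p = 4.06e-05) were higher in SNF against WCH, and Stab1 also in TRAP (1.43, adjusted p = 0.040), where Mrc1 had −1.19 (adjusted p = 0.139). The other 3 tested, Cd163, Lyve1 and F13a1, were not called in edgeR and lay at −0.74 to 1.02 in SNF and −1.50 to −0.36 in TRAP against WCH, and the median of the 5 was 1.02 in SNF and −0.60 in TRAP. Their summed level was 11.8 to 18.8 CPM in SynapTRAP, 12.9 to 23.6 in SNF, 4.17 to 4.97 in TRAP and 5.14 to 6.14 in WCH (3.90 to 7.56 in SNF and 7.38 to 9.28 in WCH in CPM of all gene counts), and Cd163 had 3 to 4 reads per library in SynapTRAP, 2 to 3 in SNF, 1 to 8 in TRAP and 8 to 14 in WCH. Of 12 blood leukocyte markers 0 passed the filter. Their summed reads were 1 to 28 per library in SynapTRAP, 0 to 3 in SNF, 0 to 7 in TRAP and 6 to 13 in WCH, and Cd3e and Nkg7 had 0 in all 12 libraries. Of 15 genes of activated microglia 7 were tested, of which 5 were higher in SNF and 3 lower in TRAP against WCH (20.6% and 10.9% of all tested genes). Apoe, among those tested, is also on the astrocyte list, and Csf1 is also among the ligands. Itgax, Cst7, Clec7a, Ccl3, Ccl4, Lgals3 and Il1b were under the filter, and Tnf had 0 reads in every library.

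**Figure D5:**
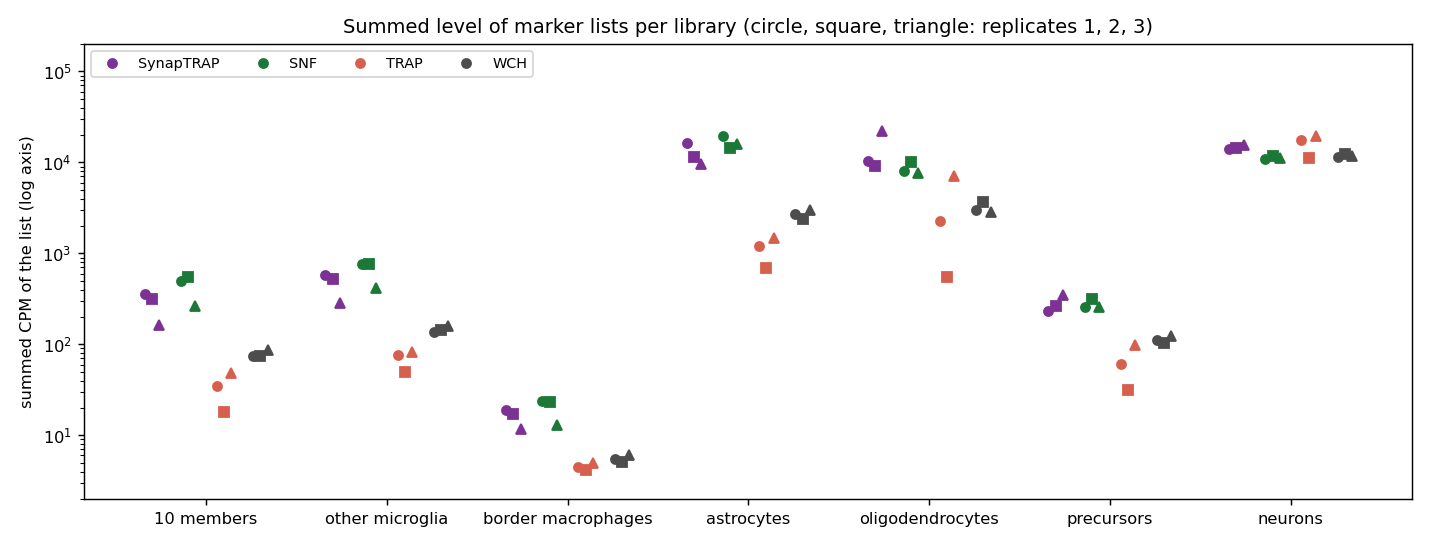
Summed CPM (log axis) of the 10 genes and of marker lists in each library of SynapTRAP, SNF, TRAP and WCH. At this scaling the microglia, astrocyte and oligodendrocyte sums are higher in every SNF library than in every WCH library, while the neuron sums of SNF (10915 to 11678 CPM) and WCH (11356 to 12398 CPM) overlap. With total gene counts as the scaling the oligodendrocyte sum is lower in SNF than in WCH. There 5 of the 10 genes have a negative log2 fold change, with 0 called lower.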

How the data were processed

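Per the labels, total RNA of 12 cortex samples was turned into cDNA with a NuGEN kit and sequenced. The files deposited by the authors hold raw read counts per gene for each library, under 29879 gene identifiers, of which 28758 matched a GENCODE M21 symbol, and 5 summary lines, which took 19.3% to 58.3% of reads and stayed out of all totals. Bowtie2, STAR, HTSeq and edgeR are named in the submitters' processing notes, without versions or order. No source used here gives the genome build, annotation or strand setting. The authors also deposited tables with log2 fold changes, log2 CPM, p-values and false discovery rates, from which ranks, log2 fold changes and false discovery rates are quoted. The likelihood-ratio scores in the tables deposited by the authors were not used.

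Counts of all 12 libraries were fitted together with edgeR 4.0.16 (R 4.3.3; TMM factors, filterByExpr, robust quasi-likelihood) with 1 mean per group, and 6 contrasts were tested with Benjamini-Hochberg adjustment over 13404 genes. A gene was called at an adjusted p under 0.05. SE is the size of the log2 fold change over the square root of F. CPM uses the TMM factors, and CPM per kilobase divides by merged exon length. The procedure was run on simulated counts with a common mean per gene in all groups, apart from equal numbers of raised and lowered genes. Such counts cannot test how the results depend on the scaling. The alternatives were DESeq2 1.42.0, RLE factors, total gene counts, TMM without mitochondrial genes, other filters, no robust estimation, only the groups compared, a replicate block, and each library left out. Leaving out both band libraries numbered 3 was chosen after seeing the data.

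The labels number the replicates 1 to 3 in each group. Deviations from the group means correlated between same-numbered libraries at 0.218 to 0.378 for SynapTRAP and SNF and 0.104 to 0.144 for SynapTRAP and TRAP. Groups were taken as paired where every such correlation was above 0.1, which held for these. The main fit has no replicate term, so its p-values do not use the pairing. The replicate block is the alternative that does. The pairing comes from these correlations, since no label ties a number to a shared animal or day.

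The 10 genes and all lists were chosen with earlier results of these data known. From each list up to 4 called genes with the largest log2 fold change were to be named, and Csf1, Il34, Cx3cl1, Itgb2, Tyrobp, Trem2, C3, C4b and Aif1, among others, by their role. Some genes of the lists are not reported here by name. Spi1, Psap, Ctsd, Ctss, Mrc1, Stab1, Cd163, Cd47, Tgfbr1 and Megf10 were picked from the lists with their values known.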

Additional observations from a re-analysis of the deposited data

Results flagged for a closer look

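Gpr34, a lysophospholipid receptor gene on the list of other microglia genes, was the gene of that list for which the pull-down effect differed between the band and the homogenate. The pull-down effect was −1.21 in the band (SynapTRAP against SNF, adjusted p = 0.0528) and −3.67 in the homogenate (TRAP against WCH, adjusted p = 4.37e-05), and the edgeR test of their difference gave 2.46 on the log2 scale (adjusted p = 0.0492). The TRAP level of Gpr34 rests on 2 to 7 reads per library. The difference was 2.04 to 3.86 over all alternatives, and the call was lost on leaving out any 1 of 10 of the 12 libraries. In edgeR it was also lost with RLE factors (adjusted p = 0.0582) and without robust estimation (adjusted p = 0.0593). Leaving out both band libraries numbered 3 lost it as well (adjusted p = 0.0823). The cause was not tested.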

How the results depend on the processing

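Of 1000 values of the 10 genes under the alternatives, 904 kept direction and side of the threshold. Total gene counts as the scaling moved most. With it 1 of the 10 genes was higher in SNF against WCH, 10 were higher and 0 lower in SynapTRAP against SNF, 9 were higher in the difference of pull-down effects, 2 were lower in TRAP against WCH, and the order of group means held for 0. That scaling counts mitochondrial RNA, which took 82.2% to 87.3% of SNF gene counts. The count of genes lower in SynapTRAP against SNF was 2 with RLE factors, with DESeq2, with the replicate block and without both band libraries numbered 3. The count of genes higher in the difference was 2 with no filter on low counts, 1 with DESeq2 and 1 with the replicate block. The cause was not tested. Leaving out 1 library at a time gave 2 to 6 genes lower in TRAP against WCH, 0 to 1 lower in SynapTRAP against SNF, 0 to 2 higher in the difference and 8 to 10 higher in SynapTRAP against WCH, while 10 stayed higher in SNF against WCH and in SynapTRAP against TRAP.

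Signs turned as follows with total gene counts. In TRAP against WCH, Cd68 was 0.31 and Trem2 0.34. In SNF against WCH, P2ry12 was −0.42, P2ry13 −0.32, C1qa −0.42, Tmem119 −0.33, Cd68 −0.32, Csf1 −1.24, Il34 −1.22, Cx3cl1 −0.27, Tyrobp −0.089, Aif1 −0.51, Gpr34 −0.55, Megf10 −0.71 and Tgfbr1 −0.87. In SynapTRAP against SNF, Itgam was 1.70, P2ry12 0.81, P2ry13 1.70, Cx3cr1 1.53, Csf1r 1.34, C1qb 1.58, C1qc 1.56, Tmem119 1.48 and Cd68 0.99. In the difference, Csf1r was 1.51 and Cd68 0.68. The difference for C1qb was −0.089 with RLE factors, −0.089 with DESeq2 and −0.15 without both band libraries numbered 3. With single libraries left out, the difference was −0.45 to 0.37 for C1qb and −0.52 to 0.40 for Csf1r, C1qa in SynapTRAP against SNF was −0.24 to 0.45, and in TRAP against WCH Trem2 was −0.52 to 0.16 and Spi1 −0.072 to 0.40.

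For the pairs of groups not taken as paired, same-numbered libraries correlated at 0.0651 to 0.165 (SNF and WCH, 6 of 6 libraries best with their own number), −0.00353 to 0.160 (SynapTRAP and WCH, 4 of 6), 0.0198 to 0.101 (SNF and TRAP, 5 of 6) and −0.0149 to 0.0634 (TRAP and WCH, 4 of 6). With the replicate block Tmem119 in TRAP against WCH lost its call (−1.42, adjusted p = 0.0651), and P2ry12 passed in SynapTRAP against WCH (0.67, adjusted p = 0.0460) and in the difference (1.55, adjusted p = 0.0389). Together with Cd68 in SynapTRAP against SNF these are the 4 of 60 calls the block changed, and the other 56 stayed. In TRAP the precision is limited by few reads, 2 to 36 per library for C1qa and 12 to 17 for P2ry13. The SNF libraries had the fewest counts outside the mitochondrial genome, 1819853 to 2111322, so that 1 read was worth 0.243 to 0.288 CPM there.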

Other observations

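The 34 tested genes on the list of other microglia genes hold 26 that encode membrane, secreted or lysosomal proteins and 8 that encode cytoplasmic or nuclear ones (among them Aif1, Irf8 and Spi1), a grouping chosen after the values were seen and not tested. In SNF against WCH 25 of the 26 and 5 of the 8 were higher, with medians of 2.30 and 1.35. In TRAP against WCH 12 of the 26 and 0 of the 8 were lower by edgeR, with medians of −1.16 and −0.41. Over all tested genes 20.6% were higher in SNF and 10.9% lower in TRAP against WCH. In SynapTRAP against SNF the medians were −0.55 for the 26, of which 1 was positive, and 0.21 for the 8, of which 4 were. All these values use TMM scaling. The C1q genes, which encode secreted chains, and the receptors among the 10 fall in the larger class.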
